A study of Mus musculus with 10 samples.

Results

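The regions described here are single exons whose signal departed from that of the rest of their gene in the injured mouse spinal cord 1 week after injury. An exon is read by a probe set, a few probes of an Affymetrix array designed to lie within 1 exon or part of one, and its signal is a log2 value. The annotation used gives a gene symbol and no coordinates, so a member called an exon here may also lie in an intron or an overlapping transcript. Of 229581 probe sets, those with 1 gene symbol and a highest signal of at least 4.85, the 40th percentile of the table, were kept in genes that had 8 or more of them. A probe set was a member if its 1 week minus sham difference lay 1.5 or more from the median difference of its gene's probe sets and both its signals reached 4.85. A departure of 1.5 on the log2 scale is 2.83-fold. The rule found 2080 members in 1298 genes, of 100436 probe sets that it could have chosen (2.07%). Among them, 864 lay above their gene (0.86%) and 1216 below it (1.21%). The members were thus chosen by their own 1 week and sham signals, and everything said of that contrast is a description, with no test.

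The tissue was spinal cord at thoracic segment T10 of wild-type ICR mice, an outbred stock, all given as 4 weeks old. The 5 groups were a sham operation and spinal cord injury followed by 1 day, 3 days, 1 week or 3 weeks, and the labels name neither a transgene nor a drug in any group. The RNA of 3 mice was mixed by equal mass in each group (15 mice in all), so each group was 1 pool on 1 array per level, with no replicate, and neither a test nor an error between mice can be given. How long after its operation the sham tissue was taken is not labelled, and the labels do not say whether 4 weeks is the age at surgery or at collection. Exon-level array medians ranged from 5.38 at 1 day to 5.81 at 3 weeks, and a difference between arrays in overall scale cancels in a departure, because the gene's own probe sets carry it too. The 14 measured of 15 neuron markers had a gene-level median of 10.18 in sham and then 9.48, 8.70, 7.37 and 9.09 from 1 day to 3 weeks, so the tissue held the RNA its label names. In bulk tissue, fewer cells of a type and less RNA per cell cannot be told apart. Signals are log2 values, listed in the order sham, 1 day, 3 days, 1 week, 3 weeks. Rose and fell are used below only where a log2 difference was 1 or more, a 2-fold change.

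A gene can make several messenger RNAs by starting at different promoters, by including or skipping cassette exons and by ending at different sites. Neurons use many exons that other cells skip, among them exons of clathrin light chains, ankyrin-binding adhesion molecules and presynaptic proteins, and other cells use exons that neurons skip, as in the amyloid precursor protein. When the mixture of cells in a tissue changes, or when cells change their splicing, such exons can move apart from the rest of their gene. The arrays read 1 exon at a time and cannot tell these routes apart, and the cause of a departure was not tested here.

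Members in a gene with more than 1 promoter may belong to only some of its transcripts, so the bases before the RefSeq transcription starts of 3 genes described below are shown: Dclk1, Dst and Tpm3, each with 2 starts in the table used. The windows are 250 bases long, end at the base before the start, and are given 5′ to 3′ on the plus strand of build GRCm38.p6. They lie at chr3:55242114-55242363 and chr3:55461478-55461727 for Dclk1, at chr1:34011345-34011594 and chr1:34160010-34160259 for Dst, and at chr3:90072401-90072650 and chr3:90079271-90079520 for Tpm3. Capitals mark matches to the GC box GGGCGG on either strand, and the search for the TATA box TATAAA on either strand found no match in these windows.
Dclk1 start 1: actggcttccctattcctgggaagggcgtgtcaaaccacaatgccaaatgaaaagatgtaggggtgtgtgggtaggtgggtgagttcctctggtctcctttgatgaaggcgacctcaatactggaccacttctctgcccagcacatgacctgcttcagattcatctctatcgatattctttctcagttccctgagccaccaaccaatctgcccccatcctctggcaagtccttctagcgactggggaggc
Dclk1 start 2: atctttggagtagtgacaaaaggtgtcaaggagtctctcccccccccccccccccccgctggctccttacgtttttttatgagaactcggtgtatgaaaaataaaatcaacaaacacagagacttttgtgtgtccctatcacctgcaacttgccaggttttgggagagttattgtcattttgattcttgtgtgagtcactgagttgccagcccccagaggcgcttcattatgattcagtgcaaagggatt
Dst start 1: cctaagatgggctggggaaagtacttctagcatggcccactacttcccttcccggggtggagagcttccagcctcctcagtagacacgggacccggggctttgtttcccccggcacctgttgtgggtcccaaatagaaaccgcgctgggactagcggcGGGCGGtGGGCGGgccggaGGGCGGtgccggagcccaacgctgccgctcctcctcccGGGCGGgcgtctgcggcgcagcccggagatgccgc
Dst start 2: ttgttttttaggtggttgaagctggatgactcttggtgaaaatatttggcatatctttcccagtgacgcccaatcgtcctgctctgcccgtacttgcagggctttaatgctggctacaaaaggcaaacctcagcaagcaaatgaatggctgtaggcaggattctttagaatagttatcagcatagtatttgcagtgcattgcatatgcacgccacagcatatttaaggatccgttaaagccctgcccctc
Tpm3 start 1: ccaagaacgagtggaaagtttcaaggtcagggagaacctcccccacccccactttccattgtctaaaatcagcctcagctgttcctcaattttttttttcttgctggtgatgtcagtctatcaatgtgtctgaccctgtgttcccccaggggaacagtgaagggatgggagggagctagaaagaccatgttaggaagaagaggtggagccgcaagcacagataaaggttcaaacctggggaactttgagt
Tpm3 start 2: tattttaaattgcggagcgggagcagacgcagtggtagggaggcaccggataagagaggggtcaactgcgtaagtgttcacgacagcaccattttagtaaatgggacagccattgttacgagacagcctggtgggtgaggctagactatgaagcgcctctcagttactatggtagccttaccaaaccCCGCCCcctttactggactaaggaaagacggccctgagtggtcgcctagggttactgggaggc
The starts are 219364 bases apart in Dclk1, 148665 in Dst and 6870 in Tpm3. The first Dst window holds 4 GC boxes and is 68.8% G and C, whereas the second holds none and is 45.2% G and C. In Tpm3 the second window holds 1 GC box and the first none, and the Dclk1 windows hold neither motif. Over all 32851 windows of the table, 32.7% held a GC box and 12.4% a TATA box, and the median share of G and C was 52.4%. The probe sets were not placed on this build, so which start a member belongs to is not given here. More than 1 start was listed for 24.1% of the 6357 genes of 8 or more probe sets found in the start table, for 27.6% of the 1032 genes with members, and for 29.3% of the 389 with members and at least 20 measured exons, against 26.0% of the 1159 as well measured genes without members. The share was lower, 22.0%, in the 127 genes with 3 or more members, and 22.6% in the 106 that held them in 1 direction. Of genes described below, App, Nrcam, Pnkd and Tpm1 have 1 start in the table.

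Of the 2080 members, 1319 (63.4%) differed from sham by less than 2-fold, 469 (22.5%) rose and 292 fell. Most, 1236 (59.4%), stayed within 2-fold while their gene rose or fell, and 804 of all members differed from sham by 0.5 or less. In the 1097 genes whose median rose, 969 of 10501 choosable probe sets lay below their gene (9.23%) and 51 above it (0.486%), 9.71% in either direction. In the 1309 genes whose median fell, 602 of 15762 lay above (3.82%) and 21 below (0.133%), 3.95% together. In the 5428 genes whose median stayed within 2-fold, 211 of 74173 lay above (0.284%) and 226 below (0.305%), 0.589% together. Members were found in 49.2% of the genes that rose, 31.2% of those that fell and 6.43% of the others. An exon that stayed level in a gene that moved by 1.5 or more is a member by the construction of the rule, and the filter also bears on these shares. In genes that rose, 6906 of 17499 probe sets had a sham signal under 4.85 and could not be chosen, and in genes that fell 6242 of 22076 had such a signal at 1 week.

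**Figure D1:**
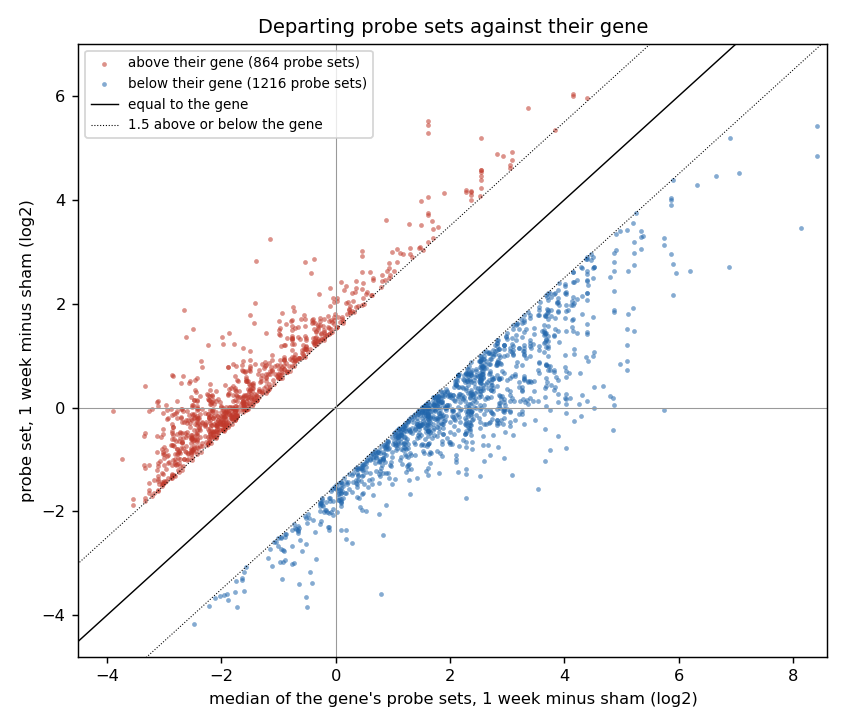
Each point is 1 of the 2080 departing probe sets, with its own 1 week minus sham difference (log2) against the median of its gene's probe sets; the solid line is equality and the dotted lines are 1.5 above and below it. Many points lie near 0 on the vertical axis, and blue points (below, 1216) reach gene medians above 8.

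The classes of members followed different courses. The 969 members below a gene that rose had median differences from sham of -0.12, 0.07, 0.21 and 0.25 from 1 day to 3 weeks, while the medians of their genes were 0.21, 1.10, 2.53 and 1.70. These medians were nearly level at every time. The 602 members above a gene that fell were likewise level, at -0.03, -0.10, -0.17 and -0.18, beside gene medians of -0.77, -1.42, -2.16 and -0.94. In sham, 887 of the 969 lay above the median signal of their gene's probe sets. The filter bears on this count, because a member needed a sham signal of at least 4.85. In genes that rose, 6906 of 17499 probe sets were under it, and the count for other choosable probe sets is not given. Over all 969 the median gap to that signal was 1.75 in sham and -0.36 at 1 week. Signals of different probe sets do not compare abundance, and how well these probe sets respond to their gene was not tested. The small classes went beyond their gene. The 51 members above a gene that rose had medians of 0.51, 2.06, 4.13 and 3.28 beside -0.08, 0.48, 1.89 and 1.58, and the 21 below a gene that fell had -0.92, -1.75, -3.34 and -0.99 beside -0.58, -1.14, -1.63 and -0.65. In genes within 2-fold, 169 of the members above rose and 185 of those below fell. The 211 members above such a gene had medians of 0.52, 0.84, 1.502 and 0.61, and the 226 below had -0.68, -0.96, -1.53 and -0.48, beside gene medians between -0.36 and 0.30.

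Genes whose alternative exons are well known held 75 members, 36 above and 39 below, in 30 of the 79 such genes that were measured. They made up 4.14% of the 1811 choosable probe sets of the list, beside 2.07% of all. In the list's genes within 2-fold, 16 of 19 members below fell by 1 or more (median over the 16 of -2.27) in 12 genes, and 17 of 19 members above rose in 5 genes, 10 of them in Dst. Over all genes within 2-fold the counts were 185 of 226 and 169 of 211, so these are near the background. Members made up 3.97% of the list's 958 choosable probe sets in such genes, beside 0.589% in all such genes, and Dst held 13 of the 38. The other 2 classes of the list showed no such excess. In its genes that fell the share was 2.38% of 630, beside 3.95% in all genes that fell. In its genes that rose it was 9.87% of 223, beside 9.71% in all genes that rose. Whether a member reads the alternative exon itself is not given by the annotation used. Of the genes named in the next paragraphs, App, Bin1, Camk2g, Nfasc, Nrcam, Snap25, Tpm1, Tpm3, Cacna1d and Plec were chosen after their values were seen.

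App encodes the amyloid precursor protein, whose forms with a protease inhibitor domain are made mainly outside neurons. App probe set 4327540 read 8.66 in sham and then 8.77, 9.68, 10.36 and 10.36 from 1 day to 3 weeks. App probe set 4349797 read 7.84, 7.45, 8.58, 9.49 and 9.75, and App probe set 4418953 read 9.13, 9.30, 9.91, 10.48 and 10.63. All 3 were lowest on the sham and 1 day arrays and highest at 1 week and 3 weeks. They rose by 1.71, 1.65 and 1.34 at 1 week, while the other 18 App probe sets lay between -0.87 and -0.21, so none of these 18 had the members' sign. At 3 weeks the members lay 1.70, 1.91 and 1.49 above sham and the others between -0.36 and -0.04.

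In Clta, Bin1, Nrcam and Nfasc, members fell and lay below the median of their gene. That median was above sham in Clta, at 0.79, and below sham in Bin1, Nrcam and Nfasc. Clta encodes clathrin light chain A, which carries inserts mainly in neurons. Its member, probe set 4399984, read 8.71 in sham and then 7.84, 6.70, 5.13 and 7.47 from 1 day to 3 weeks, the lowest at 1 week. It fell by 3.58, whereas the other 7 Clta probe sets lay between -0.19 and 1.09. Bin1, a membrane-bending protein with exons used in brain, had 1 member of 19 probe sets, which read 8.41, 8.07, 6.73, 5.12 and 7.21, beside a gene median of -0.93 at 1 week. Nrcam and Nfasc encode cell adhesion molecules of the axon initial segment and the node of Ranvier. The 4 Nrcam members differed from sham by -2.37, -2.31, -2.03 and -1.74 at 1 week, and the median of the 44 probe sets of Nrcam was -0.11. At 3 weeks they stood at -1.12 to -0.56. In all, 9 Nrcam probe sets fell, and those that were no members reached -5.64 with a 1 week signal under 4.85 or a smaller departure. The 2 Nfasc members fell by 2.98 and 2.74, beside a gene median of -0.92 over 32 probe sets, and other Nfasc probe sets reached -2.83 without passing the rule.

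Among genes that fell as a whole, 21 members fell further. Snap25 encodes a SNARE protein of synaptic vesicle fusion with a pair of mutually exclusive exons. Its members, probe sets 5052032 and 5004517, read 11.09, 10.53, 9.63, 7.76 and 10.10, and 10.94, 10.68, 9.73, 7.67 and 9.95. Both were lowest at 1 week, where they had fallen by 3.33 and 3.28, and the median of the 13 Snap25 probe sets was -1.63. Camk2g, a calcium and calmodulin dependent kinase subunit, had 1 such member, which fell by 3.85 beside a gene median of -1.72. This Camk2g member, probe set 5282948, read 9.16, 8.48, 7.68, 5.31 and 8.22 on the 5 arrays. The neuron markers listed above were also lowest at 1 week, and their part in these results was not tested.

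Tropomyosins, actin filament proteins with separate muscle and non-muscle exons, held members in Tpm1, Tpm2 and Tpm3, of which 3 rose. In Tpm3, probe set 4962486 read 6.48 in sham and then 9.27, 9.99, 10.003 and 8.97 from 1 day to 3 weeks. The other Tpm3 member, probe set 5175888, read 8.89, 9.16, 8.95, 8.48 and 8.67. The first rose by 3.52 at 1 week and the second differed by -0.41, on either side of a gene median of 1.28. The 2 Tpm1 members rose by 2.80 and 3.05 at 1 week beside a gene median of 1.08, and at 1 day they stood at 9.11 and 9.27 from 6.16 and 6.24 in sham. The Tpm2 member, also named after its values were seen, read 8.15, 10.38, 9.33, 7.23 and 7.07 beside a gene median of 0.89. Cacna1d, an L-type calcium channel subunit, had 2 members that rose by 1.55 and 1.76, while the median of its 42 probe sets was -0.13. Ckm, muscle creatine kinase, had a member that read 5.32 in sham and then 11.33, 10.42, 7.37 and 6.13 from 1 day to 3 weeks. The Myl1 member, of a myosin light chain, read 5.56, 9.94, 8.01, 6.13 and 5.16. Both were highest at 1 day. The gene-level median of the 7 measured of 12 skeletal muscle markers was 4.32 in sham and then 7.73, 6.95, 5.23 and 4.64 from 1 day to 3 weeks, with single markers between 3.77 and 6.83 at 1 week. Their part in the departures of Ckm, Myl1, Nrap, Tpm1, Tpm2, Tpm3 and Dst was not tested.

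Of 26 listed genes of the cytoskeleton and adhesion, 20 were measured and 11 held members, 17 above and 21 below. These were 4.69% of 810 choosable probe sets, beside 2.07% of all, and Dst and Itgb4 supplied 13 and 11 of them. In the list's genes within 2-fold the share was 6.99% of 458, beside 0.589% in all such genes. It was lower than in all genes of the class where genes rose (2.93% of 205, beside 9.71%) or fell (0 of 147, beside 3.95%). Dst encodes dystonin, a plakin that links filaments to adhesion sites and has neuronal, muscle and epithelial forms. Dst held 12 members above and 1 below among 113 probe sets with a median of -0.77. Probe set 4476340 of Dst read 5.48 in sham and then 6.78, 6.82, 7.16 and 7.995 from 1 day to 3 weeks. The single Dst member below, probe set 4796204, read 9.87, 9.29, 8.76, 7.51 and 8.95. The 12 members above lay between 0.92 and 1.68 at 1 week and between 1.11 and 2.52 at 3 weeks, when the single member below stood at -0.93. The 100 Dst probe sets that were no members had a median of -0.82 at 1 week and reached 2.25. Plec, plectin, another plakin, held 1 member above (2.45) and 3 below (-0.71 to -1.05) around a median of 0.86.

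Itgb1, the integrin beta 1 subunit, had 1 member, at 6.60, 5.75, 6.07, 5.95 and 6.12 beside a gene median of 2.001. Itgb4, the integrin beta 4 subunit of laminin receptors, held 11 members, all below, among 41 probe sets with a median of 0.09. Their 1 week differences lay between -2.37 and -1.43. Probe set 5250401 of Itgb4 read 8.54 in sham and then 6.82, 6.90, 6.17 and 7.90 from 1 day to 3 weeks. In all, 16 Itgb4 probe sets fell, 6 rose and 19 stayed within 2-fold at 1 week, and at 3 weeks the members stood at -0.64 to -0.29 while the median of the others was 1.30. The gene-level signal of Itgb4 was 5.95 in sham and 5.87 at 1 week, nearly level.

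Dclk1 encodes doublecortin-like kinase, which has microtubule-binding and kinase forms made from separate promoters. All 8 of its members lay above the gene, whose 29 probe sets had a median of -1.51 at 1 week. Dclk1 probe set 5144145 read 7.86 in sham and then 9.52, 9.32, 9.64 and 9.10 from 1 day to 3 weeks. This exon was above sham on each injury array. The 8 members lay between 0.34 and 1.79 at 1 week, and 2 of them, probe sets 5144145 and 4895553, rose by 1.79 and 1.09. The other 21 probe sets lay between -3.16 and -0.30. At 3 days the members stood at 0.13 to 1.47 and the others at -2.27 to 0.28. Pnkd, a gene of a movement disorder, likewise split into 5 members between -0.74 and 0.15 and 13 others between -3.77 and -0.61. Pnkd probe set 4534764 read 8.23, 8.22, 8.38, 8.38 and 8.16 and was nearly level. Osbpl1a, an oxysterol-binding protein, had 5 members above between 0.57 and 1.54 beside a median of -0.98, and Pde4a, a cyclic AMP phosphodiesterase, had 5 between -0.34 and 1.44 beside -1.86. Pnkd, Osbpl1a and Pde4a were named after their values were seen.

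**Figure D2:**
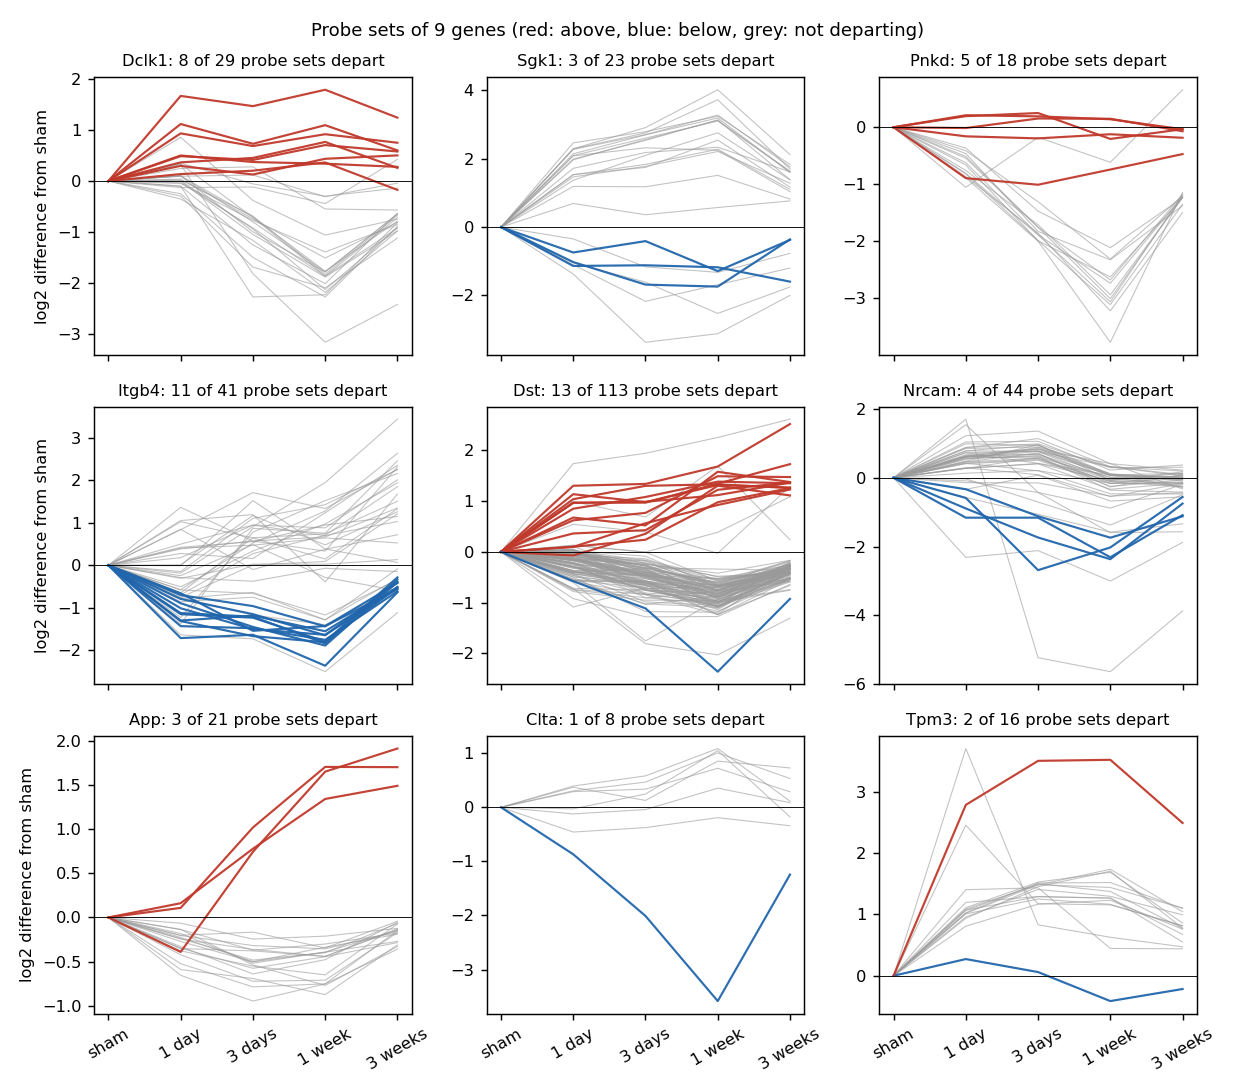
Lines are probe sets of 9 genes, as the log2 difference from sham on each of the 5 arrays, with members above their gene in red, members below in blue and the others in grey. In App the 3 red lines climb to between 1.34 and 1.71 at 1 week while the grey lines stay at or under -0.21, and in Itgb4 the 11 blue lines are lowest at 1 week and lie at -0.64 to -0.29 at 3 weeks.

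Genes of synapses and ion channels mostly fell, and most of their members were exons that stayed within 2-fold of sham. This is not particular to them, since 526 of the 602 members above any gene that fell did so. Of 22 measured synapse genes 21 fell, and they held 15 members above, 11 of them within 2-fold, and 1 below, in Dlg4 (5.18% of 309, beside 3.95% in all genes that fell). Of 14 measured voltage-gated channel genes 13 fell, with 14 members above and none below (5.07% of 276). Of the 14, 12 were in genes that fell (4.92% of 244), 9 of them within 2-fold, and the 2 others rose in Cacna1d. Single neuron markers lay between 8.24 and 12.35 in sham and between 5.08 and 10.86 at 1 week, and their part in these results was not tested. Rims1, a scaffold of the presynaptic active zone, had a member that read 7.31, 7.43, 7.47, 7.36 and 7.47 while its gene fell by 2.97. Gabrb2, a GABA-A receptor subunit, had one at 7.26, 7.58, 7.91, 7.24 and 7.12 beside a gene median of -2.88. Cacna1b, the N-type calcium channel subunit, had a member that read 6.20, 6.20, 6.14, 6.34 and 5.99 beside -2.43. These 3 exons kept within 2-fold of sham on every array, but each was named as the member with the largest departure in its gene. Rims1 had 4 members, of which 2 fell at 1 week. Cacna1b also had 4, and its probe set 4870534 stood at -1.74 at 3 days and -2.41 at 3 weeks. Gabra5, another GABA-A receptor subunit, had the largest gap of a member within 2-fold to a gene that fell, at -0.07 beside a gene median of -3.89. Gad2, which makes GABA, differed from these because its member rose, reading 8.73 in sham and 10.09, 10.13, 10.09 and 9.62 after injury, beside a gene median of -2.61. The Gad1 member read 8.89, 8.89, 8.67, 9.40 and 8.84 beside -2.55. It was above sham, by less than 2-fold, only at 1 week.

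Several neuronal genes held more than 1 member. Dock3, a neuronal guanine nucleotide exchange factor, had 7 members between -1.35 and -0.14 beside a gene median of -2.86, of which 5 stayed within 2-fold. Ryr2, a calcium release channel, had 4 between -1.45 and -0.10 beside -3.02, of which 2 stayed within 2-fold and 2 fell. Gnal, a G protein subunit of striatal and olfactory signalling, had 5 between -1.24 and -0.64 beside a median of -2.74, and these 3 genes were named after their values were seen. Cpne9, a copine, had 1 member that rose, reading 5.70, 5.59, 7.23, 7.21 and 4.25 beside -2.49, high at 3 days and 1 week and lowest at 3 weeks. Dpp10, a potassium channel partner, had one at 8.38, 8.61, 9.16, 8.79 and 7.70 beside -3.34. The Cacna2d3 member, of a calcium channel alpha 2 delta subunit, read 8.82, 9.18, 9.45, 8.63 and 8.601 beside -2.46, and the Syp member, of the vesicle protein synaptophysin, 6.18, 6.004, 5.36, 5.64 and 5.54 beside -2.85. Neuron markers proper had 2 members above, in Gad1 and Syp, and 2 below, both in Snap25. These were 3.10% of 129 choosable probe sets, all in genes that fell, beside 3.95% in all genes that fell.

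In genes that rose, members were mostly below. The extracellular matrix list had 25 measured genes, of which 24 rose and 20 held members, 25 above and 103 below. These were 18.2% of the list's 705 choosable probe sets in genes that rose, beside 9.71% in all genes that rose. The median over the 25 genes was 2.85, and the size of a gene's rise bears on such a share. The genes with the most members were 5 collagen genes, Dst and Stab1, each with at least 12. Col11a1 had 17 of 59 probe sets as members, Col5a1 16 of 67, Col6a1 16 of 34, Col4a1 13 of 66 and Col6a3 12 of 44. Col6a1, a chain of the microfibrillar collagen VI, split into 6 members between 4.23 and 5.19 and 10 between 0.23 and 0.92 at 1 week, around a median of 2.54. Col6a1 probe set 4396389 read 4.92 in sham and then 6.10, 6.995, 10.11 and 10.11 from 1 day to 3 weeks. In contrast, Col6a1 probe set 5577506 read 8.71, 8.64, 9.11, 9.03 and 8.91 and was nearly level. Col4a1, of basement membranes, had only members below, between -1.32 and 0.90, beside 2.53 for the gene. The 7 Col5a1 members above reached 3.19 to 5.51 and the 9 below lay at 0.00 or less, down to -1.16. Fbn1, the microfibril protein fibrillin, had a member that read 6.39, 6.49, 6.08, 5.605 and 6.34 beside a gene median of 4.02. The 4 Col11a1 members above, of a fibrillar collagen of cartilage, lay between 4.004 and 4.16 and its 13 below between -0.52 and 0.87. Col6a3, another collagen VI chain, had 1 member above at 4.88 and 11 below between -0.33 and 1.24. The 12 fibroblast and meninges markers had a gene-level median of 5.80 in sham, 10.19 at 1 week and 9.36 at 3 weeks, and their part in these departures was not tested.

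Members of leukocyte genes were also mostly below. The 15 measured genes of Fc receptor and myeloid signalling all rose and held 1 member above and 22 below (20.7% of 111, beside 9.71% in all genes that rose). Of the 22, 12 stayed within 2-fold and 10 rose less than their gene. Fcgr2b, an inhibitory Fc receptor, had the largest departure of all, -5.79. Its member read 8.65 in sham and then 8.28, 8.90, 8.603 and 8.84 from 1 day to 3 weeks, level on all 5 arrays, while the gene rose by 5.74. Fc receptor genes have close paralogs, so this probe set is uncertain. Ptprc, the leukocyte phosphatase CD45 with variable extracellular exons, had 3 members, of which the farthest read 7.99, 7.85, 8.26, 8.06 and 8.27 beside a gene median of 4.03. Adam8, a leukocyte metalloproteinase, read 6.59, 6.92, 6.91, 6.64 and 6.76 in its member beside a gene median of 4.87. Hacd4, an enzyme of fatty acid elongation, had one at 6.20, 6.20, 5.93, 5.77 and 6.002 beside 4.84, and Abcc3, an anion exporter, one at 7.84, 7.66, 7.43, 7.02 and 7.88 beside 3.75. None of these 3 exons moved by 2-fold on any array. Adgre1, a macrophage surface receptor, had one at 6.23, 5.88, 6.52, 7.06 and 6.78 beside 4.97. Stab1, a scavenger receptor, had 12 members, all below, that still differed from sham by 0.71 to 2.20 beside 3.71 for the gene. Msr1, the macrophage scavenger receptor, had a member that rose by 2.70 beside 6.88. The gene-level median of the 14 measured of 15 macrophage and microglia markers was 4.46 in sham and 9.45 at 1 week, and its part in these departures was not tested.

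Cell cycle genes rose in 15 of 15, and 21 of their 48 choosable probe sets were members, all below (43.8%, beside 9.23% below in all genes that rose). Ccna2, cyclin A, had one that read 7.65, 7.64, 8.05, 7.64 and 7.62 beside a gene median of 4.51. It was level on every array. The 48 are those whose signal reached the filter both in sham and at 1 week. Over all 48 the median departure was -1.30, so a place below the gene was usual among them, members or not. The median over the 15 genes was 2.75. Kif11, a mitotic motor, had one that read 5.74, 6.31, 5.37, 5.51 and 5.35 beside 2.90.

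**Figure D3:**
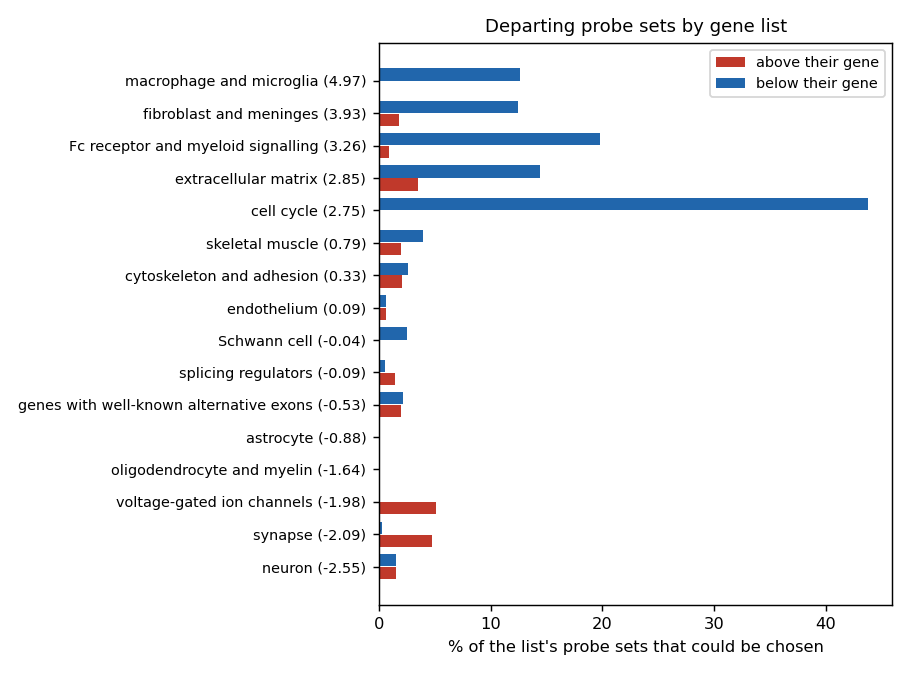
Bars give the percentage of a list's choosable probe sets that lay above (red) or below (blue) their gene at 1 week, for lists with at least 40 such probe sets, ordered by the list's median log2 difference from sham in brackets. The cell cycle list reaches 43.8% below, of 48 choosable probe sets whose median departure was -1.30, and the astrocyte and myelin lists hold no member.

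Markers of oligodendrocytes with myelin and of astrocytes held 0 members among 50 and 135 choosable probe sets, from 5 and 8 genes, too few to set 0 apart from the 2.07% of all. Of these genes, 4 of the 5 and 3 of the 8 fell. Members made up 1.24% of 161 choosable probe sets of the endothelium list, 5.88% of 51 of skeletal muscle and 2.5% of 40 of Schwann cells, or 2, 3 and 1 probe sets, and 1 of 2 for lymphocytes. Cdh5, an endothelial cadherin, had one that read 8.19, 8.30, 8.05, 7.60 and 8.29 beside a gene median of 1.95, and Slco1c1, a thyroid hormone carrier of brain vessels, one at 6.26, 4.30, 7.59, 6.44 and 6.25 beside -1.63. Egr2, a factor of Schwann cells, had one that stayed at 6.13, 6.39, 6.21, 6.11 and 6.19 beside 1.70. Cd4, a coreceptor of helper T cells, had one at 7.30, 6.59, 6.69, 8.01 and 8.15 beside 2.45. Of 29 measured splicing regulators 5 held members, 7 in all (2.00% of 350, beside 2.07% of all). Rbfox1, a neuronal splicing factor, had the largest departure above its gene, 4.53. Its probe set 5098915 read 4.98 in sham and then 7.06, 6.79, 6.86 and 5.05 from 1 day to 3 weeks, high on the first 3 injury arrays, and Rbfox1 as a gene fell by 2.65. A second Rbfox1 member read 10.45, 10.18, 9.87, 9.47 and 10.25. Elavl2, a neuronal RNA-binding protein, had a member at 6.85, 5.23, 5.89, 7.38 and 6.08 beside a gene median of -2.46.

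Members that moved against their gene were few. The sign of the member's own difference was opposite to the gene's in 907 members, but in only 44, in 41 genes, did both pass 2-fold. No other choosable probe set did so, since such a pair is at least 2 apart. In 17 the exon rose and the gene fell, and in 27 the exon fell and the gene rose. Zscan20, a zinc finger gene, had a member that read 7.49, 7.28, 8.44, 10.74 and 8.77 beside a gene median of -1.15, highest at 1 week. Rrp12, of ribosome assembly, had one at 5.45, 6.11, 7.11, 8.28 and 6.81 beside -1.39. Col5a2, a fibrillar collagen chain, had one at 11.28, 10.84, 10.78, 9.98 and 10.69 beside 3.08, and Lsp1, a leukocyte actin-binding protein, one at 6.04, 5.31, 4.43, 5.02 and 5.53 beside 3.65. The Clec4a3 member, of a lectin family with near-identical copies and so uncertain, read 9.55, 8.89, 8.38, 7.99 and 8.73 beside 3.53. Sgk1, the serum and glucocorticoid regulated kinase, was the gene with most such members, 3 of 23 probe sets, and was named after its values were seen. Sgk1 probe set 4545625 read 7.02 in sham and then 6.002, 5.34, 5.29 and 6.67 from 1 day to 3 weeks. The 3 members fell by 1.74, 1.29 and 1.18 at 1 week. Of all Sgk1 probe sets, 15 rose, 7 fell and 1 stayed within 2-fold, and RefSeq lists 6 starts for the gene.

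**Figure D4:**
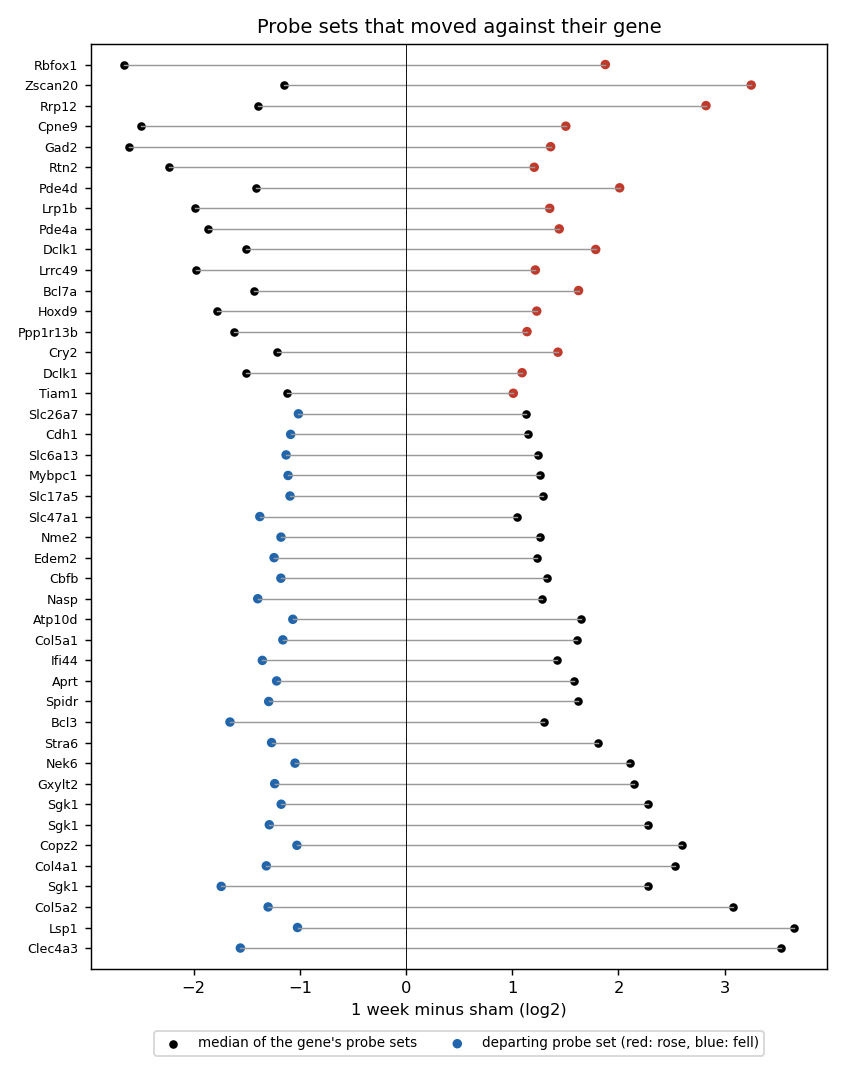
Each line joins the 1 week minus sham difference of 1 departing probe set (red where it rose, blue where it fell) to the median of its gene (black), on a log2 axis, for the 44 members where both passed 2-fold with opposite sign. Rbfox1 and Clec4a3 span the widest gaps of the 2 kinds, 4.53 and -5.09.

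The 1 day and 3 weeks arrays took no part in the contrast that chose the members, and 3 weeks minus 1 day shares no array with it. In that contrast 0.873% of 102780 probe sets departed by 1.5 or more, 0.144% above and 0.729% below. Of the 1216 members below, 935 (76.9%) again lay below their gene, with a median departure of -0.62, 239 of them by 1.5 or more, and 13 departed as far the other way. Of the 46678 other choosable probe sets below their gene at 1 week, 43.8% again lay below it. Of the 864 members above, 438 (50.7%) again lay above, with a median of 0.01, 32 of them by 1.5 or more, while 39 departed by 1.5 or more the other way, beside a repeat in 41.5% of 48592 others. The share was highest in genes that rose, 84.3% of 51 members above and 81.2% of 969 below, and these genes also differed between 1 day and 3 weeks (medians of 1.87 and 1.29). In genes that fell, the members above lay at a median of 0.00, and their genes at -0.13. Between 3 days and 1 day, 81.9% of members departed in their 1 week direction, beside 52.0% of all choosable probe sets. Between 3 weeks and 3 days it was 22.6% of members above, beside 37.9% of the other probe sets above, and 55.5% of members below, beside 40.3% of the others below. Departures of 1.5 or more made up 0.183% and 0.631% of the probe sets in these pairs. These 3 pairs share arrays with one another and are not separate checks.

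**Figure D5:**
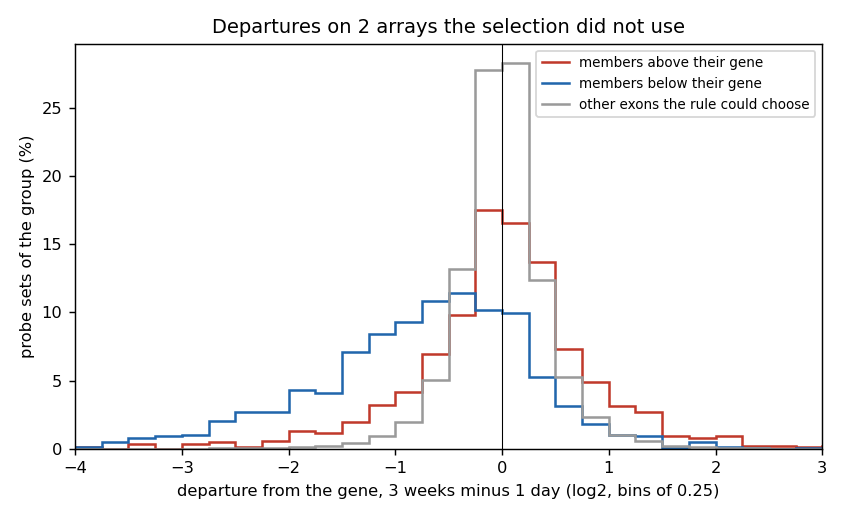
Stepped lines give the percentage of probe sets in each bin of 0.25 of the departure from the gene in 3 weeks minus 1 day (log2), for the 864 members above, the 1216 below and the other choosable probe sets; values beyond the axis are not drawn. The blue line, with a median of -0.62, is shifted to the left and the red line, with a median of 0.01, is centred on 0.

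Single genes differed in how far their members kept apart on these arrays. All 17 Col11a1 members, 16 of 16 in Col5a1 and Col6a1, 12 of 12 in Stab1, 13 of 13 in Dst, 8 of 8 in Dclk1 and 3 of 3 in App departed the same way. The App members departed by 1.16 to 2.13 there, while the Dclk1 members departed by 0.18 to 0.90. In Col4a1 it was 9 of 13, in Itgb4 5 of 11, in Nrcam 1 of 4, in Sgk1 1 of 3 and in Tpm1 0 of 2. Members of 1 gene share 1 gene median and are not separate repeats. The medians of Col6a1 and Stab1 were 0.03 and 0.39 above sham at 1 day and 2.92 and 1.89 at 3 weeks. An exon that stayed level between these arrays thus lay below them again. Over all genes that rose the share was 84.3% of members above and 81.2% of those below. Col8a2, a short-chain collagen, had a member that read 5.05, 3.73, 3.99, 8.65 and 8.79, a departure of 2.72 at 1 week and 3.50 in 3 weeks minus 1 day, though its 1 day and 3 days signals were under the 4.85 of the filter. Nrap, a muscle anchoring protein, had one at 5.52, 5.55, 6.29, 7.86 and 7.496, with 2.17 and 3.43. Among members below, Atp6v0d2, a proton pump subunit of osteoclasts and macrophages, read 6.42, 6.89, 7.45, 9.88 and 8.03, with -4.68 and -3.42. It rose by 3.46 at 1 week, and its gene by 8.14. The Gstm2 and C1ra members, with near-identical family copies and so uncertain, were level at 10.57 and 7.61 at 1 week from 10.69 and 7.49 in sham.

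Members were spread thinly over genes, with 886 genes holding 1, 247 holding 2 and 165 holding 3 or more. Of these 165, 139 held them in 1 direction, and 39 genes held members on both sides. The gene-level table, summarised separately, lay 1 or more from the exon median in 3.44% of the genes with members, beside 0.881% of all 7376 genes measured at both levels. Just inside the threshold were Col7a1 at -1.5001, Frmd5 at 1.5006 and Lpcat1 at -1.5008, and just outside were Rcan2 at 1.4999, Loxl2 at -1.4995 and Col4a2 at -1.4994.

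With the same filter, the other pairs named here held fewer departing exons than the 2.07% of the pair that set the rule. Departures of 1.5 or more came to 0.407% in 1 day minus sham, 0.914% in 3 days minus sham and 0.688% in 3 weeks minus sham. The share was 0.486% in 3 weeks minus 1 week. The shares of 1 week minus 1 day and 1 week minus 3 days, which also use the 1 week array, are not given here. Departures in these pairs had an SD over probe sets of 0.46 and 0.40, beside 0.52 in 1 week minus sham. Of all 10 pairs, the medians of the genes spread most in 1 week minus sham, with an SD over genes of 1.24, against 0.48 between 3 days and 1 day.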

How the data were processed

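Exon-level and gene-level log2 signals were used as deposited. The submitters' processing notes name GCOS and the genome mm8. Not given in the sources used here are how background was corrected and how signals were normalized and summarised, nor the log base, taken as 2 because the highest value is 13.15. Both tables hold 1 array for each of 5 groups (10 samples), so no test was run and the number of arrays limits the precision. Gene symbols came from the platform annotation, which gives 209279 probe sets 1 symbol. Of 7834 symbols with 8 or more probe sets passing the filter (126599 probe sets), 7821 were current or could be renamed through a RefSeq table. Probe sets were not placed on a genome.

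Departures, counts and medians were computed with Python 3.11.15, pandas 2.3.3 and numpy 2.4.6, after the selection was tested on simulated data. Members, gene lists and the rule for names were chosen with earlier results of these data known. The rule names the 8 largest departures in each direction, the 6 genes with most members, up to 4 with members in 1 direction, up to 6 opposite to their gene, up to 6 per direction repeated in 3 weeks minus 1 day, 2 members per list, and 3 on each side of the threshold. Other genes were named after their values were seen. Alternatives changed the filter, the threshold, the gene's centre, the scaling and the symbols.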

Additional observations from a re-analysis of the deposited data

How the results depend on the processing

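No paired analysis was possible because each group is 1 pool on 1 array. With the filter at the 30th percentile, 1343 members lay above their gene (1714 below) and 1393 had the opposite sign to their gene. With the 60th percentile, members fell in number to 870 (358 above, 512 below) in 608 genes, with 345 of opposite sign, and these held 38.6% of the members reported. With a departure of 2 or more there were 855 (295 above, 560 below) in 589 genes, with 405 of opposite sign. Quantile normalization gave 2008 members, which held 94.0% of those reported, and the mean of the gene's probe sets in place of the median gave 1786 (79.9%). At least 12 probe sets a gene gave 1665, current symbols 2082 and a median of the gene's other probe sets 2341. In 3 weeks minus 3 days, 870 of 2080 members kept their 1 week direction, against 1373 in 3 weeks minus 1 day, and the cause was not tested. Among the 1865 members above the filter on all 5 arrays, 1258 kept it in 3 weeks minus 1 day. No background level is given for the probe sets, so how far a dim signal stands above background was not tested.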
